A study of Mus musculus with 4 samples.

Results

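The genes described here are those of cytokine signal transduction through Jak3, 5 STAT factors and 4 feedback inhibitors: Jak3, Stat3, Stat4, Stat5a, Stat5b, Stat6, Cish, Socs1, Socs2 and Socs3. A probe set, the group of short probes that reads a transcript, was taken when the platform annotation gave 1 of these symbols as its only gene. This found 23 probe sets for the 10 genes, among 45037 probe sets and 18193 genes in all. The series holds 4 Affymetrix arrays of mouse RNA. The RNA was that of splenic CD8 T cells of B6 mice (wild-type) after a sort, 2 arrays from CD44+CD122+Ly49+ cells (Ly49+, named CD8 Treg in the labels) and 2 from CD44+CD122+Ly49- cells (Ly49-, named conventional memory cells). Both groups share strain, organ and the CD44 and CD122 gates, no treatment is named, and the labels do not say whether an array holds RNA of 1 mouse or of pooled mice. Nor do they name separate animals for the replicates, so the p-values cover the spread among these 4 arrays alone, part of which may be technical.

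Cytokines that bind receptors with the common gamma chain, such as interleukin-2, interleukin-7 and interleukin-15, activate the kinases Jak1 and Jak3. These phosphorylate the receptor, and STAT proteins dock there, are phosphorylated in turn, pair and move to the nucleus to switch on target genes. Cish and the Socs genes are among those targets, and their products block the receptor or the kinase, closing a negative feedback loop. Memory CD8 T cells with high CD122, a receptor chain for interleukin-2 and interleukin-15, depend on interleukin-15 and on STAT5 for their upkeep. The comparison asks whether the components of this pathway differ in transcript level between the Ly49+ and Ly49- cells of that compartment.

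A common STAT recognition sequence is a short palindrome, TTCNNNGAA, which reads the same on both strands. It was searched in RefSeq promoter windows (build GRCm38.p6) of 300 bases, from 250 before to 50 after an annotated start. Sites with another number of bases between TTC and GAA were not searched for. Of the 10 genes, 9 had such a window, 12 windows in all, and 2 genes, Cish and Socs3, had the motif. Over all 32851 windows, 8.30% held it at least once and 0.457% at least 2 times. These 2 feedback genes are shown as the only ones of the 9 with a match. On the arrays, Cish read close together in each group, as did Stat4 and Stat5a, while the Socs3 replicates lay far apart. A link between the motif and the readings was not tested. The Cish stretch is chr9:107296539-107296688 on the plus strand, bases -120 to 30 from the start, with matches at bases 1 to 9 and 12 to 20. The Socs3 stretch is chr11:117969437-117969586 on the minus strand, bases -220 to -71, with 1 match at -154 to -146. Capitals mark the matches, which are a description of the sequence and not evidence of binding in these cells.
Cish: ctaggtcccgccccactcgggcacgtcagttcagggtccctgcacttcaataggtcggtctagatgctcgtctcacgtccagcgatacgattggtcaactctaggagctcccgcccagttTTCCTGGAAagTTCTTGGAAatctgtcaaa
Socs3: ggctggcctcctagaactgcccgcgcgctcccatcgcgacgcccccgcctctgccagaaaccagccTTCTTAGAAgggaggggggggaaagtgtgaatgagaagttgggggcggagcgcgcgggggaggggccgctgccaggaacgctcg

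The arrays were alike as wholes, with medians of 188.5 to 190.4 and pairwise Pearson correlations of 0.995 to 0.998 across probe sets. All 8 measured T-cell markers read above 70.3 on every array. That was the highest intensity of any bacterial control probe set other than the hybridisation controls, and is called the highest bacterial control below. Of the genes behind the gates, Cd8a had a log2 fold change of -0.06, Cd44 of 0.16 and Il2rb, which encodes CD122, of 0.05 (limma adjusted p of 0.40, 0.21 and 0.54). Ly49- replicate 1 stood apart in 9 older probe sets for spiked-in hybridisation controls, at 0.235 to 0.728 times the lowest other array. The 9 newer probe sets for spike-ins read 0.958 to 1.06 times the mean of the other arrays there.

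No difference in Jak3, the STAT genes or the feedback genes passed the test between Ly49+ and Ly49- cells. With limma over the brightest probe set of every gene, 0 of the 10 were called at an adjusted p under 0.05, where 3.97% of all genes were, and 1 of the 10 had an unadjusted p under 0.05 against 18.1% of all genes. With each probe set tested alone, 0 of 23 were called (1.19% of all probe sets) and 3 had an unadjusted p under 0.05 (13.3%). The log2 fold changes of the 10 genes, Ly49+ minus Ly49-, ran from -0.10 to 0.16 with a median of -0.06, against a median of -0.04 over all genes. Their median size without regard to sign was 0.08, the same as over all genes. A missed threshold does not show equality, so the 95% intervals are given: for all 10 genes they lay within a 1.5-fold difference in either direction, as they did for 94.1% of all genes. Without Ly49- replicate 1, the log2 fold changes of the 10 genes ran from -0.18 to 0.17. That fit holds 1 Ly49- array and called fewer genes in all, so a lack of calls in it decides little. In sorted bulk RNA, fewer cells with a transcript and less of it per cell cannot be told apart.

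**Figure D1:**
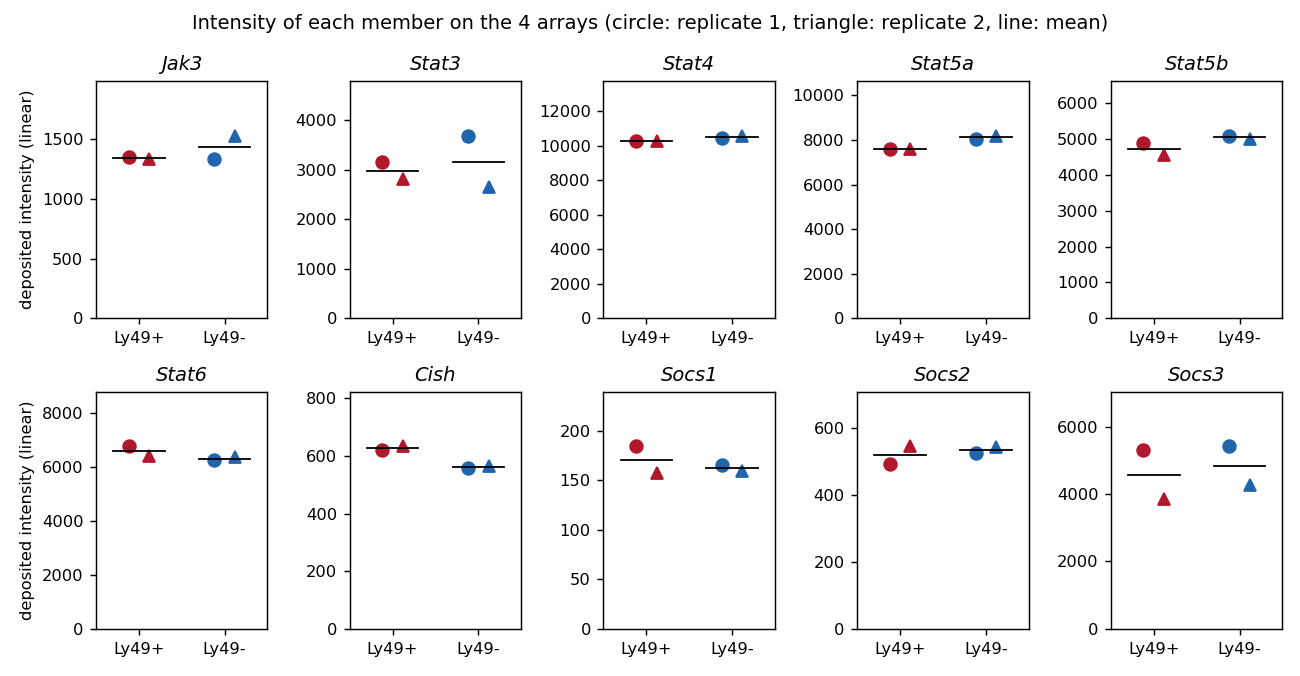
Deposited linear intensity (vertical axes, each from 0) of the 10 genes on the 4 arrays, by group, with circles for replicate 1, triangles for replicate 2 and lines for the means of 2 arrays. The arrays of a group lie close together for Stat4, Stat5a and Cish, while the arrays of Socs3 lie further apart within a group (3839 to 5314 in Ly49+) than between the group means.

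Jak3, the kinase that works with the common gamma chain, had a single probe set of its own. It read 1354 and 1336 on the Ly49+ arrays and 1335 and 1531 on the Ly49- arrays. The groups overlapped, and Ly49- replicate 2 was the high array. The log2 fold change was -0.09 ± 0.08 SE (95% interval -0.27 to 0.10, limma adjusted p = 0.63). A further 2 probe sets, assigned to Jak3 together with Insl3, are not counted here. They read 2598 and 2965 against 2725 and 2995, and 296 and 265 against 312 and 308, with adjusted p of 0.88 and 0.64.

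Stat5a and Stat5b encode the near-identical STAT5 proteins, the main mediators of interleukin-2 and interleukin-15 signals in memory CD8 T cells. Stat5a read 7597 and 7587 in Ly49+ against 8060 and 8190 in Ly49- cells. Both Ly49+ arrays were below both Ly49- arrays, by a small margin. The log2 fold change was -0.10 ± 0.04 SE (interval -0.19 to -0.01), and this was the 1 gene of the 10 with an unadjusted p under 0.05 (limma adjusted p = 0.23). Stat5b read 4893 and 4551 against 5094 and 5012, a log2 fold change of -0.10 ± 0.05 SE (interval -0.21 to 0.02, adjusted p = 0.36). The dimmer probe sets of the pair gave values of the same sign. The second Stat5a probe set read 106 and 102 against 111 and 134 (-0.20, adjusted p = 0.55 with each probe set tested alone). The second Stat5b probe set read 270 and 264 against 288 and 307 (-0.15, adjusted p = 0.60). In all 4 probe sets the groups did not overlap, as in 44.9% of all probe sets in either direction. Ly49+ was lower in all 4, and 26649 of all 45037 probe sets had negative values. The 4 were read on the same arrays, so their shared sign is not independent support. The genes lie side by side on chromosome 11 with Stat3 next to Stat5a, with 0 protein-coding genes between neighbours in the RefSeq list. Since the proteins' genes are close copies, a probe set may have read both, and this cannot be checked without probe sequences.

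Stat3, which transmits signals of interleukin-6, interleukin-10 and interleukin-21, had 4 probe sets. The brightest read 3155 and 2804 in Ly49+ and 3684 and 2644 in Ly49- cells, so the Ly49- arrays held both the highest and the lowest value. Its log2 fold change was -0.07 ± 0.13 SE (interval -0.37 to 0.23, adjusted p = 0.85). The second read 2569 and 2851 against 2791 and 2915, and the third 1805 and 1791 against 1781 and 1715. The replicates of the third were the closest among the 3 bright probe sets, with SDs of 9.70 and 46.3, and its difference was 0.04 (interval -0.11 to 0.19, adjusted p = 0.84). The dimmest probe set read 90.0 and 91.1 against 89.3 and 81.5. The 4 probe sets thus gave 2 negative and 2 positive values, from -0.08 to 0.07.

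Stat4, the STAT of interleukin-12 and a driver of interferon-gamma production, gave the narrowest interval of the 10 genes. Its probe set read 10241 and 10296 against 10466 and 10571. The Ly49+ arrays lay below the Ly49- arrays, again by a small margin. The log2 fold change was -0.03 ± 0.04 SE, and its interval reached from 1.08-fold lower to 1.03-fold higher (adjusted p = 0.68).

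Stat6, the STAT of interleukin-4 and interleukin-13, had 2 probe sets with values of opposite sign. The brighter read 6761 and 6415 against 6262 and 6369, a log2 fold change of 0.06 ± 0.04 SE (interval -0.04 to 0.16, adjusted p = 0.54). The other read 1204 and 1277 against 1407 and 1429, a log2 fold change of -0.19 ± 0.07 SE (interval -0.36 to -0.02, limma adjusted p = 0.33 with each probe set tested alone). In neither did the groups overlap, as in 44.9% of all probe sets, with Ly49+ higher in the first and lower in the second. The difference between the probe sets was not tested. The mean of both was -0.07, so the sign for Stat6 depends on the probe set.

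**Figure D2:**
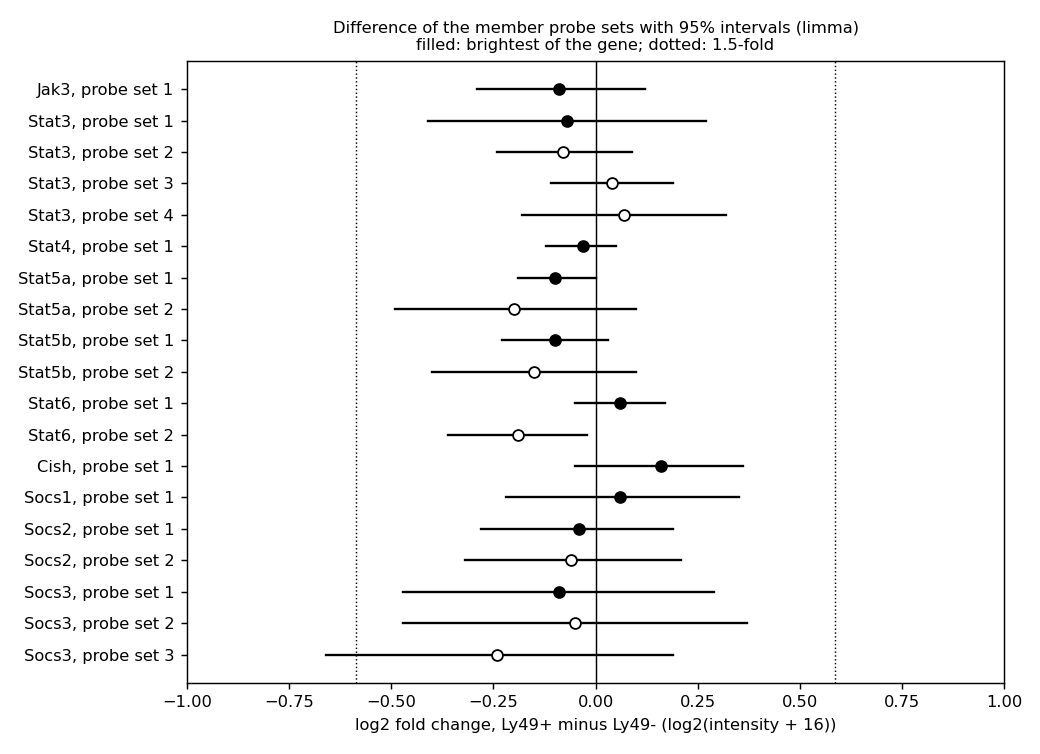
Log2 fold change (horizontal axis, Ly49+ minus Ly49-) of 19 probe sets as points with 95% intervals from limma as lines, numbered within a gene from brightest to dimmest; 4 Socs2 probe sets with group means below the highest bacterial control are not drawn. Filled points are the brightest probe set of each gene and dotted lines mark 1.5-fold: of the 19 intervals, 18 lie within them.

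Cish encodes CIS, a SOCS-family protein induced by STAT5 that restrains interleukin-2 and interleukin-15 signalling. It had the largest log2 fold change of the 10 genes in either direction. Its probe set read 621 and 633 in Ly49+ against 559 and 564 in Ly49- cells. The groups did not overlap, with Ly49+ higher, as 5 of the 10 genes did not and 48.4% of all genes did not. The means of 627 ± 7.99 and 561 ± 3.61 (SD, 2 arrays each) were far apart for their SDs. The model draws the spread of a gene toward that of other genes of like brightness, and on that footing the log2 fold change was 0.16 ± 0.09 SE (interval -0.04 to 0.35, adjusted p = 0.39). The interval reached from 1.03-fold lower to 1.27-fold higher.

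Socs1, a potent inhibitor of JAK kinases in T cells and a target of interferon-gamma and common gamma chain signals, read 184 and 157 against 165 and 159. The Ly49+ arrays held both the highest and the lowest value. The log2 fold change was 0.06 ± 0.12 SE (interval -0.21 to 0.33, adjusted p = 0.84).

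Socs2, a STAT5 target best known for limiting growth hormone signalling, had 6 probe sets. The brightest, of a kind that may also detect other transcripts, read 493 and 546 against 527 and 543 (log2 fold change -0.04 ± 0.10 SE, interval -0.26 to 0.17, adjusted p = 0.87). The second read 145 and 151 against 149 and 161 (-0.06, adjusted p = 0.87 with each probe set tested alone). In both the groups overlapped. The other 4 had means under that of the brightest bacterial control on any array, between 21.6 and 57.7, so no size is given for them. Among these, 1 had an unadjusted p of 0.046 (adjusted p = 0.36), at 34.2 and 43.0 against 32.3 and 27.0.

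Socs3, which blocks signalling through the interleukin-6 receptor chain gp130 and the interleukin-12 receptor, varied between replicates more than between groups. The brightest of its 3 probe sets read 5314 and 3839 in Ly49+ against 5411 and 4265 in Ly49- cells. Both arrays numbered 1 were above both arrays numbered 2, whatever the group. The log2 fold change was -0.09 ± 0.15 SE (interval -0.42 to 0.24, adjusted p = 0.81), the widest interval of the 10 genes. The second probe set read 5324 and 3663 against 5175 and 4032. Both of these are of a kind that may also read other transcripts. The third, which is not, read 2662 and 1797 against 2870 and 2324 (-0.24, interval -0.66 to 0.19, adjusted p = 0.62 with each probe set tested alone). The replicate difference was therefore present in all 3 probe sets, at 1.38-fold to 1.48-fold in Ly49+ and 1.24-fold to 1.28-fold in Ly49- cells.

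Socs3 shared this pattern with the immediate-early genes, which cells switch on within minutes of a stimulus. Of 20 such genes, 19 were higher on the array numbered 1 in both groups, with a median replicate difference of 0.49 on the log2 scale in Ly49+ and 0.49 in Ly49- cells. The median size of the replicate difference over all genes was 0.07 and 0.08. Egr1, a growth-response transcription factor, read 15121 and 7109 in Ly49+ and 14129 and 7003 in Ly49- cells, in order of replicate number. Atf3, a stress-response transcription factor, read 1249 and 324 against 487 and 106. Between the groups, 0 of the 20 were called, and 2 had an unadjusted p under 0.05: Egr3 (log2 fold change 0.38, adjusted p = 0.13) and Btg2 (0.21, adjusted p = 0.15). Over all genes, 81 of 18193 (0.445%) exceeded the replicate 2 array by at least as much as Socs3 in both groups. Among these 81 were Socs3 itself, 10 of the 20 immediate-early genes and none of the other genes of the 10. The brightest Stat3 probe set also read higher on both arrays numbered 1, by 0.17 and 0.48 on the log2 scale, but its second probe set read lower on both, by 0.15 and 0.06. For Cish the replicate differences were -0.03 and -0.01. What set the arrays numbered 1 apart was not tested, and the labels attach no batch to the numbers.

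**Figure D3:**
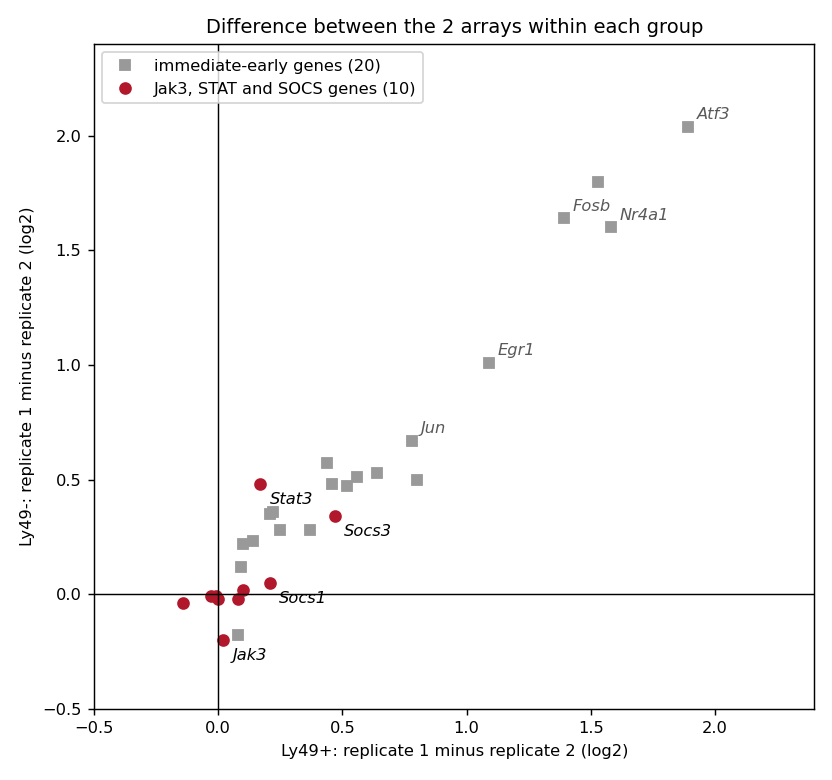
Difference between the arrays numbered 1 and 2 on the log2 scale, in Ly49+ cells (horizontal axis) and in Ly49- cells (vertical axis), for the 10 genes (red circles, brightest probe set) and 20 immediate-early genes (grey squares). Socs3 lies at 0.47 and 0.34 among the immediate-early genes, Stat3 at 0.17 and 0.48, and Cish near 0 on both axes at -0.03 and -0.01.

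The other genes of the pathway were read from fixed lists, which hold 109 distinct genes, 103 of them measured. Of the 103, 4 were higher in Ly49+ cells, 2 lower and 97 did not pass, with a median log2 fold change of 0.00. Among all genes 1.93% were higher and 2.04% lower. None of the kinases, STATs or inhibitors was called. Of the partners of Jak3 and the STATs, 4 were measured, with 0 at an unadjusted p under 0.05. Tyk2, a kinase of the interleukin-12 and type I interferon receptors, had a log2 fold change of -0.13 (adjusted p = 0.32), and Jak2 of -0.04 (0.66). Of 17 other inhibitors, 0 were called and 4 had an unadjusted p under 0.05, as did 18.1% of all genes. The smallest p among them belonged to Cbl, a ubiquitin ligase (log2 fold change 0.19, adjusted p = 0.072), and Pias3, an inhibitor of STAT3 (0.27, adjusted p = 0.086). Pias3 read 1124 and 1150 against 931 and 951, with no overlap.

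Receptor chains of the common gamma family gave 0 calls among 7 measured genes, with 1 at an unadjusted p under 0.05. Il2rg, the gene of the common gamma chain itself, had no probe set annotated to it alone and was not measured. Il4ra, the interleukin-4 receptor chain that feeds Stat6, read 4007 and 4145 against 4546 and 4730 (log2 fold change -0.19, limma adjusted p = 0.080). Il21r, which signals largely through Stat3, had -0.12 (adjusted p = 0.32). Of 18 other receptor chains, 1 was higher and 1 lower, and 5 had an unadjusted p under 0.05, against 18.1% of all genes. The groups did not overlap for 12 of the 18, against 48.4% of all genes. Il6ra, the binding chain for interleukin-6 and so upstream of Stat3 and Socs3, fell by 0.28, at 7045 and 7100 against 8589 and 8564 (adjusted p = 0.0062). Csf2rb, the chain shared by the receptors for interleukin-3, interleukin-5 and GM-CSF and an activator of STAT5, rose, at 548 and 620 against 287 and 369 (log2 fold change 0.81, adjusted p = 0.011). Of 15 cytokine genes, 0 were called and 2 had an unadjusted p under 0.05. Il2 read 85.8 and 70.5 against 92.4 and 104 (adjusted p = 0.27). Il4 had Ly49+ readings of 52.3 and 63.6, below the highest bacterial control, and an adjusted p of 0.19. Leaving out any 1 array lowered the calls over all genes and ended that of Il6ra, whose log2 fold change stayed at -0.28 to -0.27. Csf2rb missed without Ly49+ replicate 2, Ly49- replicate 1 or Ly49- replicate 2. Its log2 fold change ran from 0.64 to 0.98 over the fits without 1 array. When the spread was fitted with no trend, Csf2rb had a limma adjusted p of 0.055 and Il6ra of 0.096.

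Among known target genes of the STATs, 1 gene of each list was called, where 3.97% of all genes were. Of 16 STAT5 targets 1 was lower: Gzmb, the protease granzyme B, at 989 and 1152 against 2066 and 3001 (log2 fold change -1.21, limma adjusted p = 0.0039). The other 15, which include Bcl2, Myc, Pim1 and Il2ra, did not pass, and the list's median was 0.03. An unadjusted p under 0.05 was found for 6 of the 16, against 18.1% of all genes, and the groups did not overlap for 13 of the 16, against 48.4%. Of 11 STAT4 targets 1 was higher, Gcnt1, a glycosyltransferase that builds selectin ligands, at 276 and 281 against 155 and 184 (0.67, adjusted p = 0.017). Of 14 STAT3 targets 1 was higher, the transcription factor gene Maf (0.58, adjusted p = 0.011). Of 11 STAT6 targets 1 was higher, Mrc1, the macrophage mannose receptor, at 2046 and 2417 against 1358 and 1269 (0.75, adjusted p = 0.0026). An unadjusted p under 0.05 was found for 1 of the STAT4, 3 of the STAT3 and 2 of the STAT6 targets. The groups did not overlap for 4, 6 and 2 genes of these lists, in the same order. The list medians lay between 0.00 and 0.03 on the log2 scale.

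Fits without 1 array ended most of these calls, while the signs held. The log2 fold change without 1 array was -1.48 to -0.94 for Gzmb, which passed each time, and 0.56 to 0.78 for Gcnt1, which missed each time. Mrc1 missed without Ly49- replicate 1 or 2, and ran from 0.63 to 0.87 over the fits. Maf missed without Ly49+ replicate 1, Ly49+ replicate 2 or Ly49- replicate 2, and ran from 0.46 to 0.69. In the fit with no trend Gzmb and Maf missed (limma adjusted p of 0.050 and 0.051). With a robust spread Gzmb missed (0.10), and with probe sets averaged per gene Maf and Gcnt1 missed (0.21 and 0.13).

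**Figure D4:**
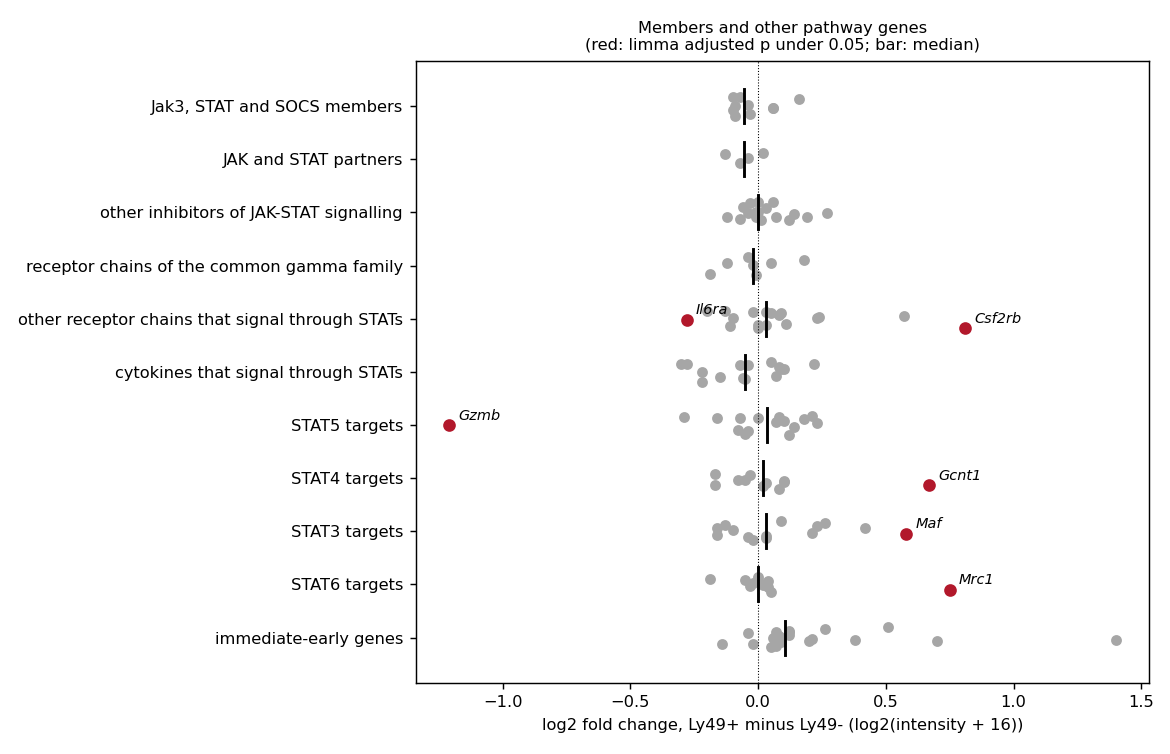
Log2 fold change (horizontal axis, Ly49+ minus Ly49-) of the 10 genes and of each fixed list, 1 point per gene, with red for a limma adjusted p under 0.05 and a black bar for the median; a gene on several lists is drawn in each. The 10 genes lie between -0.10 and 0.16, and the 6 called genes stand off from list medians close to 0.

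Markers of other cells moved with the same groups. Of 14 myeloid markers 13 read above the highest bacterial control on all arrays and Itgam did not, 11 were higher in Ly49+ cells and 2, S100a8 and S100a9, lower. Their summed intensity was 21069 to 23406 in Ly49+ against 14648 to 14689 in Ly49- cells. Csf2rb and Mrc1, which myeloid cells express, rose on the same arrays, as did Maf, and the part of myeloid RNA in these rises was not tested. Of 4 measured NK-cell markers 3 were higher, Itga2, Tyrobp and Fcer1g, while Ncr1, a defining NK receptor, read below the highest bacterial control on every array. The 4 summed to 5789 to 6244 against 3333 to 3403. Most of that was Tyrobp, at 3133 and 3372 against 2157 and 2089, and Fcer1g, at 2410 and 2590 against 1081 and 1053. Which cells gave these rises was not tested. The 10 measured B-cell markers summed to 5307 to 5605 against 4549 to 4552, with 1 higher and 1 lower. Cd22 was higher, at 2191 and 2361 against 1082 and 1095, and rose by more than the sum did. Cd79b was lower, at 2050 and 2020 against 2488 and 2462. Of the list, 3 genes, Pax5, Fcer2a and Cr2, read below the highest bacterial control on every array. The 7 dendritic-cell markers summed to 3453 to 3718 against 3425 to 3636, with Xcr1 the 1 called, higher, and 5 at an unadjusted p under 0.05. The log2 fold changes were 0.40 for Flt3, 0.43 for Zbtb46 and -0.17 for both Itgax and Ccr9, none of which passed. Of the 3 gamma-delta markers Cd163l1 was lower, with sums of 4817 to 5126 against 5764 to 6361. In the CD4 T-cell, erythroid and platelet lists limma called 0 genes, with 1, 1 and 0 at an unadjusted p under 0.05 and medians of -0.06, 0.08 and -0.04. The 8 T-cell markers summed to 123734 to 123940 against 125247 to 125797, with 0 called and 1 at an unadjusted p under 0.05. Myeloid cells also express Stat3, Stat6 and Socs3, and the part of their RNA in those readings was not tested.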

How the data were processed

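RNA of 4 samples, 2 Ly49+ and 2 Ly49-, was labelled with biotin by the Affymetrix protocol, per the labels. The authors deposited 1 intensity per probe set and array, taken here to be linear because all were above 0 and the highest were far beyond a log scale. The sources used here do not give the summarization or normalization, and scanner files were not used.

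Probe sets were named from the 2016 platform annotation: of 45101, 34945 had 1 symbol, 932 several, 9160 were unlisted and 64 were controls. Gene IDs of 34741 matched a RefSeq list (GRCm38.p6) with 0 symbols changed. The brightest probe set (by mean) stood for each of 18193 genes, and every non-control probe set was also tested alone. Tests used log2(intensity + 16), which understates the differences of dim genes, and limma 3.58.1 in R 4.3.3 (package data.table, version 1.17.8), with a trend of the spread, group as its single term (degrees of freedom: 2 residual, 6.66 prior), Benjamini-Hochberg adjustment over all features, and a threshold of 0.05. The code was tested on simulated data. Intervals are limma's 95% intervals, unadjusted. The number of arrays limits the precision.

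Named genes were the 10 genes with all probe sets, the called genes of each list (up to 6) or else the 2 with the smallest p, and Cd8a, Cd44 and Il2rb. Egr1, Atf3 and the markers and further list genes named were picked with their values in view. An item of the fixed lists, and what rests on it, is not reported here. The 10 genes and the lists were chosen with earlier results of these data known. Alternatives were quantile normalization, pseudocounts of 1 and 64, no trend, a robust spread, an adjusted p under 0.1, a replicate block, the brighter features alone, probe sets averaged per gene, no _s_at or _x_at probe sets, and leaving out each array, where a lone array takes its spread from the other group.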

Additional observations from a re-analysis of the deposited data

How the results depend on the processing

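Of the 10 genes, 0 were called under any of the 14 alternatives run, and of the 23 probe sets 0 under any of the 12 that apply to them. At an unadjusted p under 0.05 there were 0 to 2 of the 10 genes and 0 to 4 of the probe sets. The smallest adjusted p of any of the 10 genes was 0.17. Of 139 values of the 10 genes under alternatives, 131 kept their sign. With probe sets averaged per gene Stat6 had -0.07. Without 1 array in turn, the log2 fold change ran from -0.18 to 0.01 for Jak3, -0.31 to 0.17 for Stat3, -0.04 to 0.17 for Socs1, -0.11 to 0.03 for Socs2 and -0.32 to 0.15 for Socs3, so these signs rest on single arrays. The others kept their sign, from 0.02 to 0.10 for Stat6, -0.15 to -0.05 for Stat5b, -0.11 to -0.09 for Stat5a, -0.04 to -0.03 for Stat4 and 0.14 to 0.17 for Cish. Socs1 was too dim for the fit on brighter genes. The count of 6 called pathway genes became 2 without a trend of the spread and 1 to 3 when 1 array was left out (3 when it was Ly49+ replicate 1, 2 for Ly49+ replicate 2 or Ly49- replicate 1, and 1 for Ly49- replicate 2). At an adjusted p under 0.1 it was 11. Calls over all genes moved the same way, from 723 to 370 without a trend and to 1252 at an adjusted p under 0.1. They also fell in each fit without 1 array, so a smaller pathway count in these fits does not single out the pathway genes.

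With the replicate number as a block, 14 pathway genes and 1533 of all genes were called, against 6 and 723 without it, and Socs3 had an adjusted p of 0.33. The labels do not say that a number marks a shared animal or day. The deviations of same-numbered arrays from their group means had a correlation of 0.25 over all genes, and 2 pairs are too few to settle a pairing. Quantile normalization moved the median of all genes from -0.04 to -0.03 and turned no sign among the 10 genes.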
